A study of Mus musculus with 18 samples.

Results

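Untagged bulk regulatory T cells (Tregs) of mice given tamoxifen around birth were compared with untagged Tregs of mice given tamoxifen as adults. The 6 arrays are the GFP+YFP- spleen samples, 3 from perinate-treated and 3 from adult-treated mice, of 18 arrays in the series, and their labels define them. Each group carries the replicate numbers 3, 4 and 5. Arrays are named here by treatment and number, for example adult-treated 3.

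The cells came from spleens of female NOD mice, 60 days old per the sample labels, a strain that develops autoimmune diabetes. All mice carried a Foxp3 allele that expresses eGFP and a tamoxifen-activated Cre recombinase (Cre-ERT2), and a Rosa26 YFP reporter. The controls therefore carry both alleles and received the drug as well. Tamoxifen was given intraperitoneally in 4 injections between days 0 and 10 of life (perinate) or days 35 and 45 (adult). The series text gives 8 weeks as the age at harvest, and Tregs were sorted in 2 successive rounds, on a FACSAria per the labels. Cells that expressed Foxp3 while the drug was present turned YFP+ (tagged), so that the untagged cells are Tregs that were not marked. They may have arisen outside the window or escaped recombination. The labels do not say whether an array holds 1 animal or a pool, or whether replicates are separate animals, so every p-value here covers only how these samples vary, which may be technical.

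Tregs are CD4+ T cells that need Foxp3, a transcription factor, to hold other immune cells in check. In the spleen they form a mixture of resting cells, which recirculate through lymphoid organs, and effector cells, which have met antigen and express inhibitory receptors, suppressive cytokines and tissue-homing receptors. In the NOD strain their failure to hold back T cells in the pancreatic islets accompanies the loss of insulin-producing cells.

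The gate was borne out by its defining gene. Foxp3 (probe set 10598292) lay between 11.88 and 12.26 on the 6 arrays, on the log2 intensity scale used throughout unless stated. Cd3e lay between 12.72 and 13.12 and Cd4 between 11.11 and 12.04, while Cd8a, the defining gene of cytotoxic T cells, read 6.41 to 6.78. Xist read 12.05 to 12.34 and 3 Y-linked genes 3.95 to 5.86. The Y-linked values serve as the level that a transcript absent from these cells can read. The interquartile range of an array's log2 values was 2.88, 2.99 and 3.00 after perinate and 2.72, 2.51 and 3.07 after adult treatment, with adult-treated 4 the narrowest.

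The first comparison asked what the age at tamoxifen treatment does to the Tregs that were not tagged. No single gene could be separated from the spread between arrays. By limma with Benjamini-Hochberg adjustment 0 of 10350 genes tested passed 0.05 (0%), with a smallest adjusted p of 0.995. At an unadjusted p under 0.05 there were 380 genes (3.67%), of which 336 were higher and 44 lower after perinate treatment. That split was 250 to 125 with quantile normalization, 123 to 74 with the interquartile range as a covariate and turned to 366 higher and 694 lower with no expression filter. The 380 genes were 117 without adult-treated 4 and 1734 without adult-treated 5. Those without adult-treated 3, perinate-treated 3, 4 and 5 were 546, 700, 245 and 190. The median difference of all genes was 0.06 as deposited and -0.0019 with quantile normalization. The 3 arrays of one treatment lay above the 3 of the other for 347 genes higher after perinate treatment (3.35%) and 151 genes lower (1.46%).

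The precision bounds what could have been missed, as far as the untagged arrays vary as the tagged ones do. The median standard error (SE) of a difference was 0.15, and for 8540 genes (82.5%) the 95% interval lay inside 1.5-fold in either direction. It lay inside 2-fold for 10217 genes (98.7%). The SE of a gene rests on a spread shared by all 12 spleen arrays, tagged ones included. For genes that vary more among the untagged arrays, the SE and interval can be too small. Only 21 genes differed by at least 1 on the log2 scale in the point estimate.

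The gene with the lowest p was Endog, a nuclease of the mitochondrion (probe set 10470950). It read 7.17, 7.01 and 7.10 on perinate-treated 3, 4 and 5 and 6.64, 6.58 and 6.65 on the adult-treated arrays. Its groups did not overlap, and the difference of 0.47 ± 0.12 (SE, n = 3 per group) had an adjusted p of 0.995 in limma. The adult-treated values of Endog lie within the range of Cd8a (6.41 to 6.78). The odorant receptor gene Olfr320 read 6.56, 6.46 and 6.68 against 7.36, 7.16 and 6.98, a difference of -0.60 ± 0.16. Olfactory receptors are not known as Treg genes, and all its values lie within 2 units of the Y-linked background range. The other 8 genes by p were Aurkc (a meiotic kinase), Ptgir (the prostacyclin receptor), Adck1, Mlycd (malonyl-CoA decarboxylase), Arhgef4, Iah1, Rprl1 and Nmnat2 (an enzyme of NAD synthesis), with differences of 0.42 to 0.58 in size.

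Gene lists were described by treatment too, without a test of a list as a whole. They ran from effector and resting Tregs to dividing cells and markers of other cell types. That 0 members passed follows from 0 of all genes passing. The median difference was 0.03 over the 36 tested effector Treg genes, 0.12 over 22 resting Treg genes, -0.03 over 36 mitosis genes and 0.05 over 25 Treg identity genes. Over all genes it was 0.06.

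A group of short non-coding RNAs stood out by its size. Small nucleolar RNAs (snoRNAs) guide the chemical modification of ribosomal RNA, and many lie within introns of other genes; they are shorter than the messenger RNAs the array was built for. All 44 snoRNA genes tested had a positive difference, with a median of 0.62, and 29 of them had an unadjusted p under 0.05. Over all genes 66% had a positive difference and 3.67% such a p. The median snoRNA level was 8.99, 9.87 and 9.57 on perinate-treated 3, 4 and 5 and 9.18, 8.53 and 8.38 on adult-treated 3, 4 and 5. The groups overlapped, because perinate-treated 3 lay below adult-treated 3. The means were 9.48 ± 0.44 and 8.70 ± 0.43 (SD, n = 3), with a two-sided exact permutation p of 0.2, where 3 against 3 arrays cannot give less than 0.1. The 63 microRNA genes had a median difference of -0.06 (exact permutation p = 0.9), so short RNA genes did not all lean one way.

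**Figure D1:**
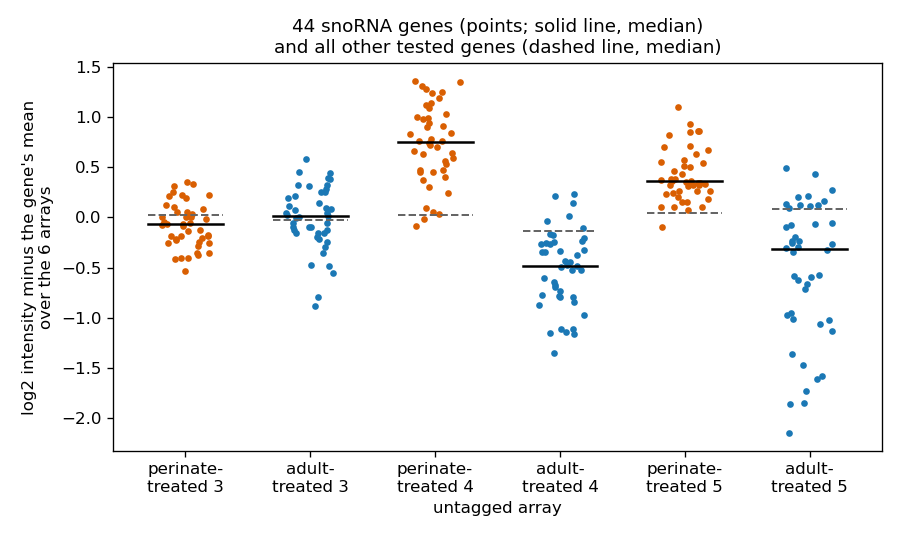
Log2 intensity of 44 snoRNA genes on the 6 untagged arrays, each gene relative to its own mean (vertical axis), with arrays ordered by replicate number (horizontal axis). Points are genes, the solid line is their median and the dashed line the median of the other tested genes; the 2 arrays numbered 3 lie close together, while perinate-treated 4 and 5 (medians 9.87 and 9.57 before centring) lie above adult-treated 4 and 5 (8.53 and 8.38).

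Same-numbered arrays were next fitted as pairs, because some of them deviated from their group means together. The correlation of these deviations was 0.63 for number 3 but only 0.14 for number 4. The latter lay below the 0.27 and 0.30 of 2 pairs of arrays with different numbers. The pairing was read from the same values that the block then tests, and number 4 hardly shows it. Fitted with replicate number as a block, limma called 37 genes (0.357%), 26 higher (0.251%) and 11 lower (0.106%) after perinate treatment. That fit has 2 residual degrees of freedom per gene and relies on the spread pooled over genes. As a random effect the block gave 0 genes (445 at an unadjusted p under 0.05), and over all 12 spleen arrays it also gave 0 (562 at an unadjusted p under 0.05). Of the 26 higher genes 17 were annotated as snoRNAs. The others included the RNA components of further small ribonucleoproteins, and 8 of the 11 lower genes read at least 1 higher on 1 adult-treated array than on every other array.

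Among the blocked higher genes, Rny3, a Y RNA bound by the Ro60 protein (probe set 10537909), read 12.83, 13.23 and 13.02 after perinate and 12.83, 11.97 and 11.53 after adult treatment. Its 2 arrays numbered 3 were alike, and the blocked difference was 0.92 ± 0.17 (adjusted p = 0.000984 in limma). Rny1, another Y RNA, read 7.20, 9.01 and 8.34 against 8.08, 6.92 and 6.28, with the arrays numbered 3 in the opposite order to those numbered 4 and 5. Terc, the RNA template of telomerase, read 10.50, 11.30 and 10.94 against 10.36, 9.43 and 10.57, higher after perinate treatment within each number. The vault RNA Vaultrc5 gave 0.87 ± 0.20, Rnu12, an RNA of the minor spliceosome, 0.85 ± 0.20, and Atxn1l, the only protein-coding gene of the 26, 0.62 ± 0.15. Without adult-treated 4 the blocked difference of Rny1 was 0.59, of Terc 0.25, of Vaultrc5 0.26 and of Atxn1l 0.47, and none of these 4 passed. Without adult-treated 3 Rny1 stood at 2.08 and Terc at 1.12, while Atxn1l, at 0.52, did not pass either.

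One array decides whether any of this group passes without the block. Leaving out adult-treated 3, 5 genes passed in limma, namely Snord35a, Snord35b, Snord49b, Snord73b and Snord87. Snord35b read 9.68, 10.60 and 10.09 after perinate treatment and 10.04, 8.49 and 7.85 on adult-treated 3, 4 and 5. The first adult value lies inside the perinate range and the other two below it. Without adult-treated 3 its difference was 1.95 ± 0.24 (adjusted p = 0.00718), and with it 1.33 ± 0.39 (adjusted p = 0.995). Leaving out any other spleen array gave 0. The interquartile range was narrowest on adult-treated 4 (2.51) and widest on adult-treated 5 (3.07), both low in snoRNA, and the part of array quality in this difference was not tested.

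Mir142, host of a microRNA of blood cells, also passed in the blocked fit. It read 9.94, 9.39 and 9.47 after perinate and 8.96, 8.30 and 9.42 after adult treatment, with a blocked difference of 0.71 ± 0.16 (adjusted p = 0.015 in limma). The probe set does not separate the precursor from the mature products, which are given from RefSeq (GRCm38.p6, chromosome 11, plus strand) with the seed, bases 2 to 8, in capitals, to show what this locus makes. They lie at chr11:87756867-87756887 (5p) and chr11:87756903-87756925 (3p).
miR-142a-5p: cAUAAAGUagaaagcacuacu
miR-142a-3p: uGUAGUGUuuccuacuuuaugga

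Of the 11 blocked lower genes, Iapp, Ins2, Chga and Sst stood at least 1 above every other array on adult-treated 3, and Mir680-1, Mir680-2, 1700054O19Rik and Vmn2r-ps104 did so on adult-treated 4. These are values of single arrays. The other members were Olfr320, Mir692-1 and the interferon gene Ifnz, which read 7.54, 7.97 and 7.63 after perinate and 8.29, 9.16 and 7.74 after adult treatment.

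Pancreatic islet transcripts appeared on adult-treated 3. Iapp (probe set 10542632), the amyloid peptide that beta cells secrete with insulin, read 12.26 on that array and 5.54 to 5.93 on the other 5, 80.5-fold over the next array. Ins2, the insulin gene (10569358), read 11.98 there against 6.36 to 6.72, 38.3-fold over the next. The granule protein gene Chga read 10.13 against 6.69 to 6.96, and Sst, the somatostatin gene of delta cells, 9.80 against 6.95 to 7.23. The 6 tagged spleen arrays did not show it: Ins2 read 6.36 to 6.89 and Iapp 5.22 to 5.78.

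The signal covered several islet cell types. The glucagon gene Gcg of alpha cells read 8.25 on adult-treated 3 against 5.54 to 6.29, the incretin receptor gene Glp1r 8.28 against 6.07 to 6.68, and the glucose transporter gene Slc2a2 7.31 against 5.97 to 6.21. A list of islet genes was assembled after these values had been seen and is given as a description. Of its 29 genes on the array, adult-treated 3 was the highest of the 6 arrays for 28, whereas over all 19752 genes it was the highest for 20.9%. It stood at least 1 above every other array for 17 of the 19752 genes, and 13 of the 17 were in the list. The other 4 were Papss2, Peg3, Snap25 and Glyatl3.

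Digestive enzyme genes did not accompany the islet genes. The summed linear intensity of 21 exocrine pancreas genes was 1903 on adult-treated 3, 1901 on adult-treated 4 and 1524 to 1667 on the other 4 arrays. The islet sum was 15243 on adult-treated 3 and 2476 to 2867 elsewhere. What brought the islet transcripts into this sample was not tested.

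**Figure D2:**
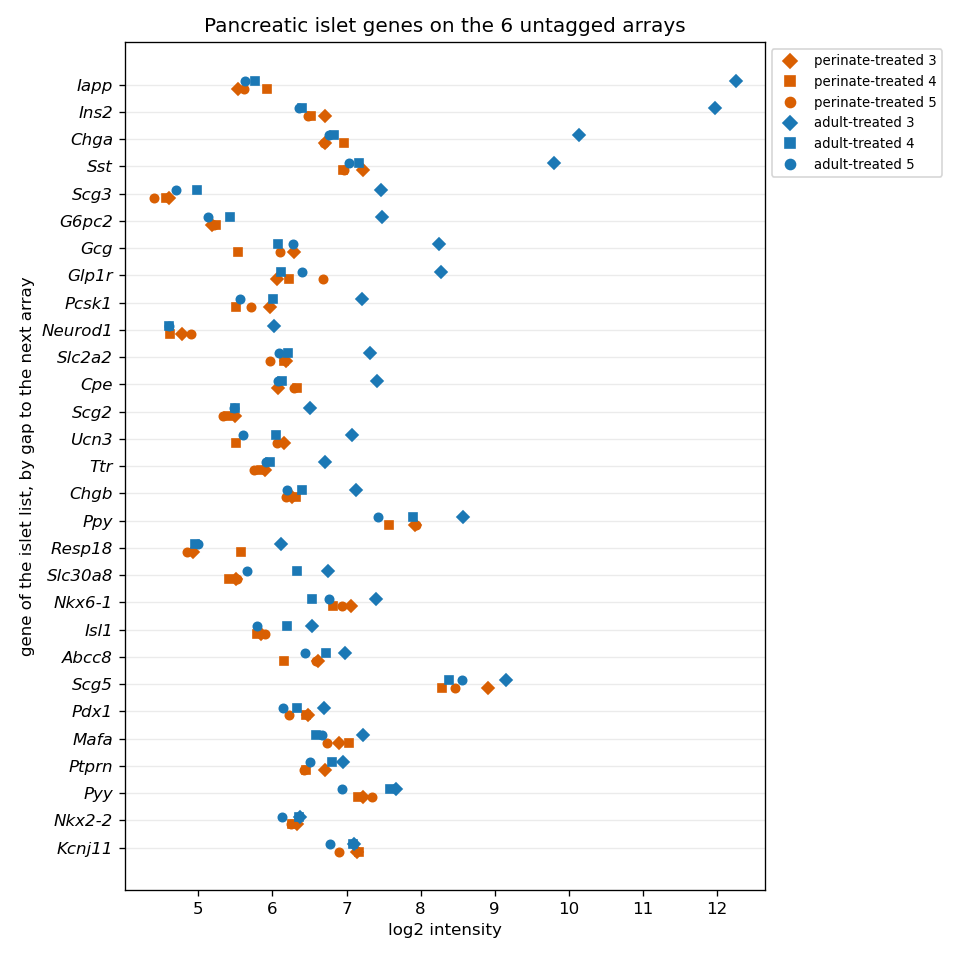
Log2 intensity (horizontal axis) of the 29 islet genes on the array, ordered by the gap between adult-treated 3 and the next array. Each symbol is 1 untagged array; adult-treated 3 (blue diamond) lies apart for the first 13 genes, from Iapp at 12.26 against 5.93 at most.

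Adult-treated 4 carried another set. Mir680-1 read 10.45 on it and 6.80 to 7.29 on the other 5 arrays, and Mir680-2 read 11.01 against 7.84 to 8.05. The signal was not unique to that array: Mir680-1 read 10.19 and 9.56 on adult-tagged 1 and 3, and 10.29 on adult thymus 2, arrays whose interquartile ranges were also narrow (2.49, 2.59 and 2.08). Besides these, olfactory and vomeronasal receptor genes such as Olfr715 (6.68 against 4.31 to 4.65) and the vomeronasal pseudogene Vmn2r-ps104 (8.17 against 5.91 to 6.19) lay at least 1 above the other arrays. RefSeq (GRCm38.p6) lists the same mature sequence at the Mir680-1, Mir680-2 and Mir680-3 loci, chr6:129691541-129691561 (plus strand), chrX:144297790-144297810 (plus strand) and chr12:35194849-35194869 (minus strand). It is printed with the seed in capitals to show what the loci share, and the probe sets do not separate precursor from mature RNA.
miR-680: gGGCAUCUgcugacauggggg

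How much any gene varied among the 6 arrays was described next. The median standard deviation (SD) was 0.19, and 239 of 10350 genes had an SD over 0.5 (2.31%). These were spread unevenly over RNA types: 22 of the 44 snoRNA genes and 196 of 9967 protein-coding genes exceeded 0.5. Of the total sum of squares 60.7% lay between replicate numbers (2 degrees of freedom), 14.6% between treatments (1 degree of freedom) and 24.6% in the rest (2 degrees of freedom). Number 3 against numbers 4 and 5 alone made up 45.7%. The replicate number had the largest mean square for 5603 genes (54.1%), which by itself is a description of these 6 arrays.

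The arrays ordered themselves in the same way. On the first principal component, with 47.8% of the variance, perinate-treated 3 and adult-treated 3 lay at 17.9 and 25.2 and the other 4 arrays between -15.8 and -0.64. The second component, with 29.4%, set adult-treated 4 apart at 27.6. Adult-treated 3 and perinate-treated 3 differed at least 2-fold in 12 genes, whereas adult-treated 3 and adult-treated 5 differed in 260. The closest arrays were perinate-treated 4 and 5, with 3 such genes.

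**Figure D3:**
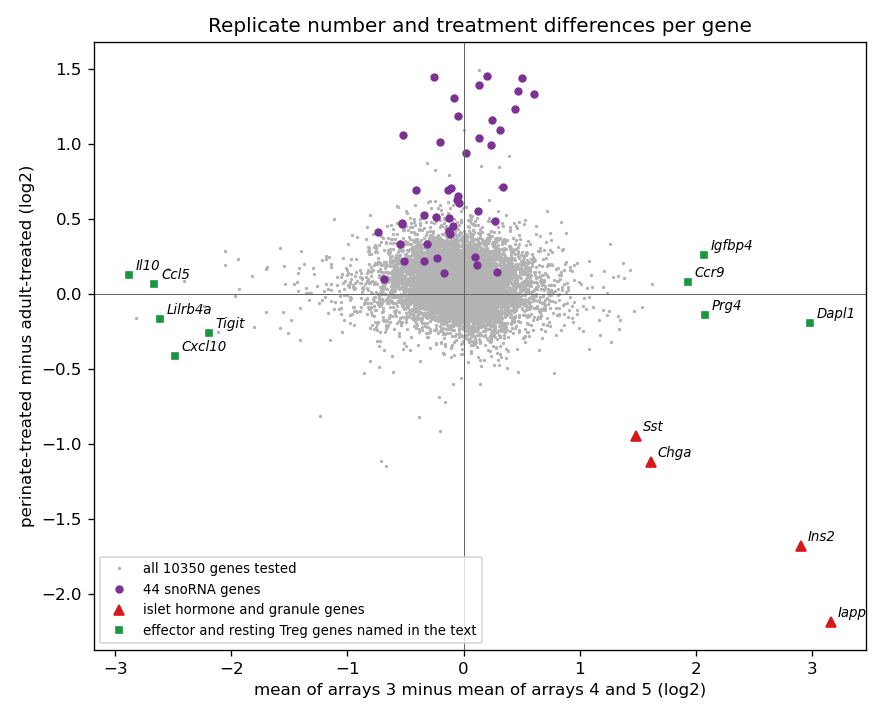
Each point is 1 of 10350 genes, placed by the mean of the 2 arrays numbered 3 minus the mean of the 4 arrays numbered 4 and 5 (horizontal) and by the treatment difference (vertical), both on the log2 scale. Effector and resting Treg genes such as Il10 (-2.88) and Dapl1 (2.99) spread along the horizontal axis with treatment differences near 0, snoRNA genes spread along the vertical axis, and the islet genes of adult-treated 3 lie at the lower right.

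The arrays numbered 3 held less transcript of effector Treg genes and more of resting Treg and cholesterol synthesis genes than those numbered 4 and 5, in both treatments. Both arrays numbered 3 lay above all 4 others for 1716 genes (16.6%) and below them for 1534 (14.8%). By at least 1 on the log2 scale it was 38 genes above (0.367%) and 86 below (0.831%). The split was chosen because it was seen in these data, so it carries no test. In bulk samples, fewer effector cells and less of these RNAs per cell cannot be told apart.

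The gene lowest on the arrays numbered 3 was Il10, the suppressive cytokine of effector Tregs (probe set 10349603). It read 6.05, 8.99 and 8.73 on perinate-treated 3, 4 and 5 and 5.83, 8.65 and 8.91 on adult-treated 3, 4 and 5. The arrays numbered 3 were at or near the level of the Y-linked genes, and the difference from numbers 4 and 5 was -2.88, or 7.37-fold lower. Between treatments Il10 differed by 0.13 ± 0.72 (adjusted p = 0.995 in limma). That SE rests on the spread shared by all 12 spleen arrays and can be too small for the untagged arrays alone.

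Of the 12 lowest genes 3 encode chemokines. Ccl5, which attracts T cells (probe set 10389207), read 8.67, 11.69 and 11.63 after perinate and 9.04, 11.31 and 11.43 after adult treatment. Cxcl10, an interferon-induced chemokine, read 7.92, 10.65 and 10.28 against 8.41, 11.07 and 10.62. Ccl3 read 5.64, 8.66 and 8.05 against 5.71, 7.94 and 8.21. In all 3 genes both arrays numbered 3 lay at least 1 below every other untagged array.

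Receptors that restrain T cells differed in size. Tigit, a receptor that dampens T cell activation, read 9.41, 11.76 and 11.70 against 9.84, 12.05 and 11.76. Ctla4, the inhibitory receptor essential to Treg function, read 10.46, 11.81 and 11.86 against 10.44, 11.63 and 11.94. The number 3 difference was -1.16 for Pdcd1 (PD-1), -1.41 for Havcr2 (TIM-3), -1.82 for Klrg1 and -0.34 for Lag3. These genes were picked from the effector and identity lists and are not a list of their own. The transcription factors Prdm1 and Bhlhe40, both active in effector T cells, stood at -1.58 and -2.05.

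Of the 36 effector Treg genes tested, 27 lay below and 1 above the range of numbers 4 and 5, with a median of -0.73, against 14.8% below and a median of -0.00 over all genes. The exception above was Myadm, at 0.78. The calcium-binding S100a4, S100a6, S100a10 and S100a11, the adhesion receptor Cd44, Ccr2, Lgals1 and Anxa2 overlapped, between -0.49 and 0.11. The list averaged 8.62 and 8.83 on perinate-treated 3 and adult-treated 3, 9.45 to 9.69 on the other 4 arrays, 8.23 to 8.52 on the adult-tagged and 10.12 to 10.19 on the perinate-tagged arrays.

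The gene highest on the arrays numbered 3, apart from the islet gene Iapp, was Dapl1 (probe set 10472235), a marker of resting T cells. It read 10.87, 8.44 and 7.80 after perinate and 11.38, 8.29 and 8.02 after adult treatment, 7.92-fold higher on the arrays numbered 3. Igfbp4, an insulin-like growth factor binding protein of naive T cells, read 10.33, 8.29 and 8.05 against 9.95, 7.87 and 8.07. The gut-homing chemokine receptor Ccr9 read 8.77, 6.36 and 7.19 against 8.61, 6.65 and 6.83. Both arrays numbered 3 were above all others for these genes, and for Prg4, the lubricant proteoglycan lubricin, which was 2.08 higher.

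Of 22 resting Treg genes 14 lay above and 1 below the range (16.6% and 14.8% of all genes), with a median of 0.42. Besides Dapl1 and Igfbp4 they included the cytoskeletal Actn1 (1.33), the transcription factors Bach2 (0.66), Satb1 (0.58), Foxo1 (0.53) and Lef1 (0.49), and Ccr7 (0.36), the receptor for lymph node entry. The member below was Il7r, the interleukin-7 receptor, at -0.73. Il7r and Pik3ip1 are also in the glucocorticoid list.

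**Figure D4:**
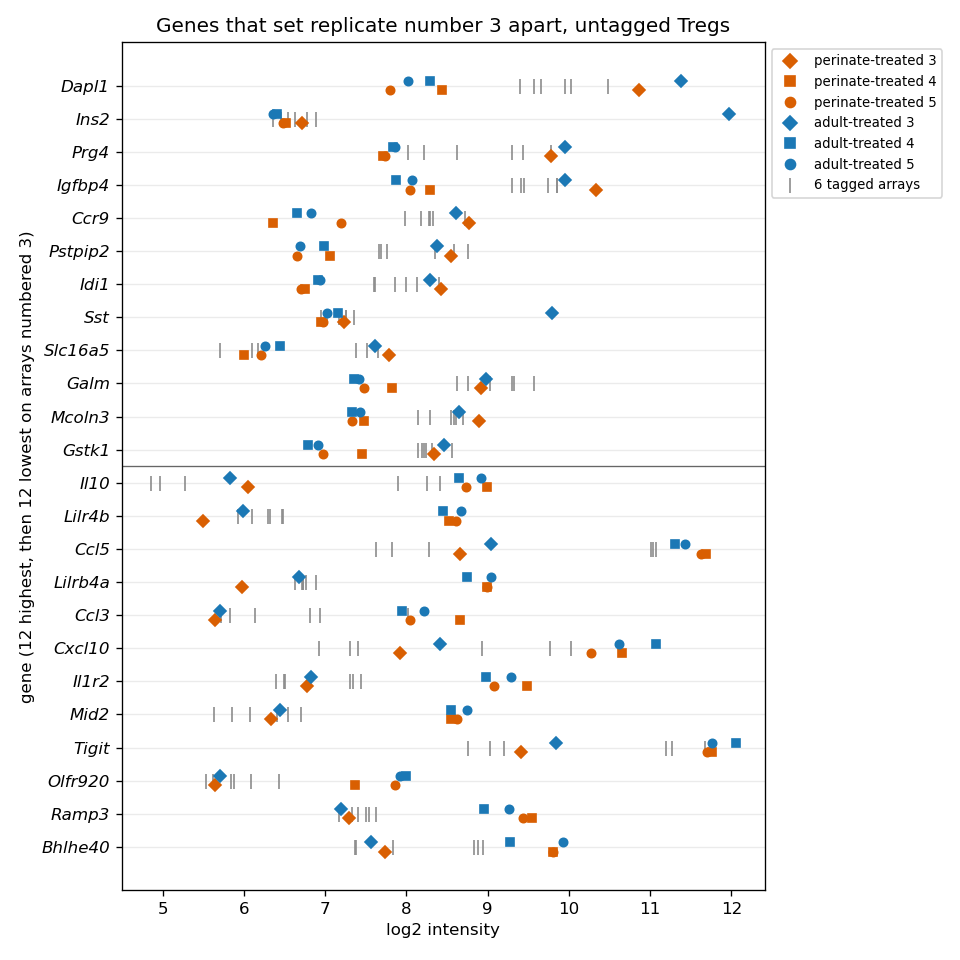
Log2 intensity (horizontal axis) of the 12 named genes highest and the 12 lowest on the arrays numbered 3 relative to numbers 4 and 5, with small RNAs and predicted genes left out; Iapp and Chga, for which perinate-treated 3 overlapped numbers 4 and 5, are not among them. Colour marks treatment, shape the replicate number and grey ticks the 6 tagged arrays; both diamonds lie on one side of all squares and circles for each gene, while Ins2 and Sst are high on adult-treated 3 alone.

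Genes of cell division were lower on the arrays numbered 3 too. Of 36 mitosis genes 26 lay below and 0 above the range (14.8% and 16.6% of all genes), with a median of -0.53. The checkpoint kinase gene Bub1 (probe set 10487480) read 6.27, 7.25 and 7.62 after perinate and 6.25, 7.34 and 7.62 after adult treatment. Knl1, its docking protein at the kinetochore, stood at -1.03, and Mki67, which encodes the proliferation antigen Ki-67, at -0.53. Genes of DNA replication were less uniform, with 10 below and 3 above of 36 and a median of -0.12. That median was -0.06 without perinate-treated 3, -0.07 without perinate-treated 4 and -0.20 without adult-treated 4. Rrm2, a subunit of ribonucleotide reductase, was among the 3 above, at 0.38.

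Cholesterol synthesis genes lay on the other side. Of 18 tested, 14 were above and 1 below the range (16.6% and 14.8% of all genes), with a median of 0.54. Idi1, the isomerase of the isoprenoid precursors (probe set 10482762), read 8.43, 6.75 and 6.70 after perinate and 8.30, 6.91 and 6.93 after adult treatment. Sqle (squalene epoxidase) was 1.23, Cyp51 0.85 and Hmgcs1, the synthase before the rate-limiting step, 0.72 higher. Srebf2, the transcription factor of the pathway, was 0.64 higher, while Sc5d stood at -0.28.

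SREBP factors bind sterol regulatory elements in promoters of this pathway. The 250 bases before the start were searched on both strands for the letters TCACNCCAC, in 16 RefSeq promoters of 14 of the 18 genes. Only that of Hmgcs1 held a match (6.25% of the 16 promoters), against 1.05% of all 32851 promoters in the table, and no other motif was searched. A match is a description and no site shown to be bound, and no match says only that these letters are not in the window. The Hmgcs1 window (GRCm38.p6, chr13:119690101-119690350, plus strand) is printed as the one promoter of the group with a match, in capitals.
Hmgcs1: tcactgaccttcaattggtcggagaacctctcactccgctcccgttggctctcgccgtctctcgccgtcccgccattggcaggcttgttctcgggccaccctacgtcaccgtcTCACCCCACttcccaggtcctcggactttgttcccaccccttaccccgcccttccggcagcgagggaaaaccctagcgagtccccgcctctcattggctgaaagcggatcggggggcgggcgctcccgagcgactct

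Treg identity genes were split. Of 25 tested, 16 lay below and 4 above (14.8% and 16.6% of all genes), with a median of -0.46. Foxp3 overlapped at -0.17, and Ikzf2, the Treg transcription factor Helios, stood at -0.30. Il2ra, the interleukin-2 receptor alpha chain, was 0.20 higher and Gpr83 0.92 higher. The costimulatory receptor genes Tnfrsf18 (GITR) and Tnfrsf4 (OX40) stood at -0.86 and -0.83. Tigit, Itgae, Nrp1 and Ebi3 stand in both the identity and the effector list, so the counts share members.

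Stress and signalling lists were mixed, beside 16.6% above and 14.8% below over all genes. Of 12 glucocorticoid-response genes 6 lay below and 1 above (median -0.53), with Fkbp5, a cochaperone induced by the hormone, at 8.37, 9.62 and 10.00 against 7.87, 9.21 and 9.99. Of 26 NF-kB and T cell receptor activation genes 12 lay below and 2 above (median -0.22), with the feedback inhibitor Tnfaip3 at -1.46. Of 20 unfolded protein response genes 8 were above and 1 below (median 0.15). Ribosomal protein genes (1 above and 0 below of 39) and respiratory chain genes (2 and 0 of 46) rarely left the range. Among 27 immediate early genes 8 were below and 2 above, and among 31 interferon-response genes 7 and 3. The counts above and below were 4 and 0 of 13 core T cell genes, 6 and 2 of 19 heat shock genes, 3 and 0 of 22 glycolysis genes, 6 and 3 of 24 ribosome biogenesis genes, 6 and 8 of 24 homing receptor genes and 3 and 1 of 9 estrogen receptor targets. Several of these counts lie near or under the shares over all genes, and nothing is read from them.

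**Figure D5:**
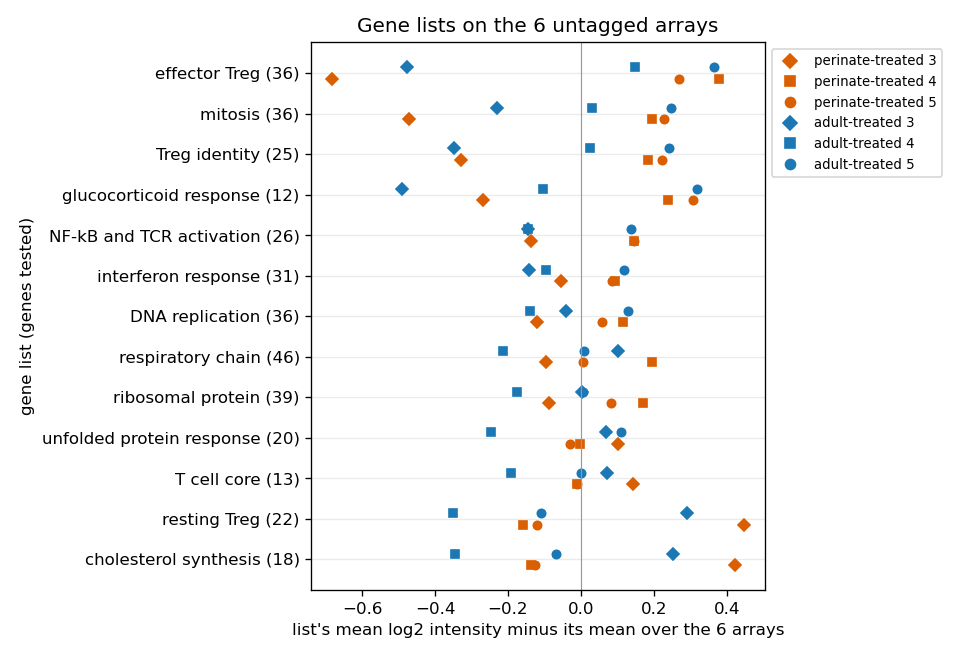
Mean log2 intensity of each gene list on each untagged array, relative to the list's mean over the 6 arrays (horizontal axis), with the number of genes tested in brackets. The arrays numbered 3 (diamonds) are lowest in the effector, mitosis and Treg identity lists, by 8.62 and 8.83 against 9.45 or more for the effector list, and highest in the resting and cholesterol lists.

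Summed intensities of some marker lists of other cell types were also lower on the arrays numbered 3, in part through genes shared with effector Tregs. The summed linear intensity of 16 B cell genes ran from 1623 to 1853 over the 6 arrays, and that of 9 erythroid and platelet genes from 798 to 868. Of 17 granulocyte and mast cell genes 0 reached the expression filter, and their sum ran from 949 to 1230. Plasma cell genes summed to 2093 and 2136 on the arrays numbered 3 and 2352 to 2605 on the others, and helper T cell genes to 3691 and 4097 against 4163 to 4735. The plasma cell list holds Prdm1, also in the effector list, which read 7.32 and 7.88 on the arrays numbered 3 and 9.08 to 9.30 on the others. The median number 3 difference was -0.04 over 4 tested plasma cell genes and 0.11 over 7 tested helper T cell genes. It was lower for the CD8 and NK cell (-0.40, 9 tested), dendritic cell (-0.25, 4 tested) and myeloid lists (-0.17, 8 tested). For the B cell (3 tested), erythroid and platelet (2 tested) and stromal lists (11 tested) it was 0.04, 0.08 and 0.04. Dendritic cell genes summed to 1924 and 2179 against 2107 to 2420, with an overlap, and stromal genes to 10555 to 11104 over the 6 arrays. The 21 myeloid genes summed to 2132 and 2249 on the arrays numbered 3 and 2459 to 2686 on the others. The 16 genes of the CD8 and NK cell list summed to 2553 and 3279 on the arrays numbered 3 and 5740 to 6488 on the others. Its leading members Ccl5, Gzmk (-1.15) and Nkg7 (-0.67) are also made by effector Tregs, and Cd8a itself stayed at 6.41 to 6.78. The part of such cells in the number 3 difference was not tested.

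Leaving out an array relaxes the rule that all must lie outside the range, so the counts can grow. Without adult-treated 3 the 86 genes were 96 and the 38 were 45, and without perinate-treated 3 they were 110 and 46. The labels give no batch, date or pool behind the numbers, so whether the number stands for animals, a sort or a hybridisation was not tested.

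The 6 tagged spleen arrays place both sides of the split. Of the 86 genes at least 1 lower on the arrays numbered 3, the 4 arrays numbered 4 and 5 lay above all 6 tagged arrays for 47, against 569 of all genes (5.5%). For the 38 genes at least 1 higher, they lay below all tagged arrays for 28, against 610 of all genes (5.89%). The arrays numbered 3 lay outside the tagged range less: above it for 8 of the 38 genes (281 of all genes, 2.71%) and below it for 2 of the 86 (127 of all genes, 1.23%). The split chose these genes by the same untagged values, so nothing is read from the shares.

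The widest such gap belonged to a pair of related leukocyte receptor genes. Lilrb4a (probe set 10363082) read 5.98, 8.99 and 8.99 after perinate and 6.67, 8.74 and 9.05 after adult treatment, against 6.63 to 6.89 on the tagged arrays. Lilr4b, its neighbour in the same family, read 5.49, 8.52 and 8.61 against 5.99, 8.45 and 8.67, with 5.93 to 6.49 on the tagged arrays. The 2 genes are close copies, and how far their probes share transcripts is uncertain. Il1r2, the decoy receptor for interleukin-1, read 8.98 to 9.48 on numbers 4 and 5 against 7.45 at most on the tagged arrays, and Ramp3, a receptor activity-modifying protein, 8.96 to 9.55 against 7.63 at most.

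The adult-tagged group has numbers 1, 2 and 3, so number 3 cannot be set against 4 and 5 there. Adult-tagged 3 lay above adult-tagged 1 and 2 for 4 and below them for 7 of the 38 genes (19.8% and 31.6% over all genes). For the 86 genes it lay above for 23 and below for 26. Its median difference from numbers 1 and 2 was -0.00 and 0.03 over the 38 and the 86 genes.

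The last comparison asked whether the treatment difference of tagged cells also appeared in the untagged ones. Between perinate-tagged and adult-tagged cells 379 genes differed at least 2-fold and at an adjusted p under 0.05 in limma (3.66%). Over the 355 that were higher in perinate-tagged cells, the median difference was 1.41 in tagged and 0.02 in untagged cells, where it ranged from -0.53 to 0.57. For 193 of the 355 the untagged difference had the same sign. For 354 the 95% interval of the untagged difference lay below the tagged difference. The tagged difference was taken there without its own error and the genes were chosen for its size, so nothing is read from that count. The 24 genes lower in perinate-tagged cells had a median of -1.13 in tagged and -0.02 in untagged cells.

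The difference itself was tested as tagged minus untagged. Of the 379 genes 283 passed in limma, where 506 of all 10350 passed (4.89%); the 379 were chosen for a large tagged difference, which favours passing. The count was 348 without perinate-tagged 2, an array labelled female on which Eif2s3y, a Y-linked gene, read 9.79 and Xist 8.38. Gzmb, the granule protease granzyme B, read 7.35, 9.50 and 9.19 on perinate-treated 3, 4 and 5 and 8.02, 8.64 and 9.15 on adult-treated 3, 4 and 5. These ranges overlap, and the untagged difference was 0.08 ± 0.45 against 4.18 in tagged cells (difference 4.10 ± 0.63, adjusted p = 0.00134). The untagged error of 0.45 also rests on the spread shared with the tagged arrays and can be too small.

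Genes with a wide spread by replicate number gave wide errors here. Il10 differed by 3.15 in tagged and 0.13 in untagged cells, and the difference of 3.03 ± 1.02 did not pass (adjusted p = 0.116). Without adult-treated 3 it was 4.01 (adjusted p = 0.00442), within a range of 0.00442 to 0.279 over all alternatives. Ccl5 gave 3.06 ± 0.95 (adjusted p = 0.0859) and Tigit 2.65 ± 0.79 (adjusted p = 0.0736). By contrast Myadm, at 7.34, 7.08 and 6.69 against 8.30, 7.28 and 7.12, gave 3.42 ± 0.37 (adjusted p = 0.000132). On the untagged arrays numbered 3, 212 of the 355 genes lay below the range and 4 above it (14.8% and 16.6% of all genes). Their median was -0.45. Of the 24 genes lower in perinate-tagged cells 16 lay above and 0 below, with a median of 0.59.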

How the data were processed

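Sorted spleen Treg RNA was hybridised to Affymetrix arrays (Mouse Gene 1.0 ST). The deposited values are linear probe set intensities (6.81 to 18850), which the authors made by RMA in Affymetrix Power Tools, as named per the submitters' processing notes. Versions, genome build and the arrays normalized together are not given in the sources used here, so array features carry no coordinates. Of 24922 probe sets 21425 have 1 gene symbol, 1399 several and 2098 none. The highest-mean probe set per gene was kept (19752 genes), log2 transformed with no pseudocount.

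Genes whose mean reached the median of all values (133 linear, 7.05 log2) in at least 1 of 4 spleen groups were tested (10350). The main fit was limma 3.58.1 (R 4.3.3) over 12 spleen arrays, two-sided, with Benjamini-Hochberg adjustment at 0.05. Plots and exact permutation tests used Python 3.11.15, matplotlib 3.10.9 and scipy 1.17.1. On simulated data for the untagged treatment contrast (10350 genes) the main fit recovered 96 of 100 genes changed by 1. It recovered 100 of 100 changed by 2, with 10 false calls in all (4.85%). In the real untagged arrays 0 genes passed, although 21 differed by at least 1. There 60.7% of the total sum of squares lay between replicate numbers. The simulated recovery is therefore not taken as the share of such changes that would be found in the real arrays. After group means were subtracted, same-numbered arrays correlated at 0.63 (number 3), 0.14 (4) and 0.47 (5), each above the bound of 0.1, so the numbers were taken to pair, although perinate-treated 4 correlated more with adult-treated 5 (0.27) and perinate-treated 5 at 0.30 with adult-treated 4. This pairing comes from the data, not the labels.

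Samples and lists were chosen with earlier results of these data known. Genes were named by rule: the lowest p, blocked calls, the 20 largest SDs, the 12 highest and 12 lowest by number, up to 4 per list by SD, check genes and the 10 largest tagged differences. Predicted genes, small RNAs and receptor segments were left out of the rule. Small RNAs, single-array genes, islet genes, those compared with the tagged range and further list members were named after their values were seen. Alternatives were quantile normalization, median centring, filters, probe set means, other priors and weights, the arrays fitted, blocks and leaving out arrays.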

Additional observations from a re-analysis of the deposited data

Results flagged for a closer look

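The perinate-minus-adult difference was not the same in tagged and untagged Tregs. Between the tagged groups 379 genes were at least 2-fold apart and had an adjusted p under 0.05 in limma. By limma's test of the difference of differences, 283 of them passed an adjusted p of 0.05, beside 506 of all 10350 genes (4.89%). The 379 were chosen for a large tagged difference, which favours passing. No group holds more than 3 arrays, so single outlying samples were not sought by a test.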

How the results depend on the processing

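The untagged treatment count was 0 under 12 alternatives, among them a fixed block over the 12 spleen arrays and a random block over the 6. It was 0 to 5 when 1 array was left out, and 37 with the fixed replicate block over the 6 untagged arrays. The block also gave 44 genes without adult-treated 3 (40 higher, 23 of them among the 26, and 4 lower) and 21 without adult-treated 4 (14 higher, all among the 26). These were chosen after seeing the data, have 1 residual degree of freedom and rest on the pooled spread. There Iapp, Ins2 and Chga turned to 0.0781, 0.115 and 0.0335 without adult-treated 3, the array that set them. The tagged-minus-untagged count of 283 was 186 with the interquartile range as a covariate and 200 to 348 without 1 array. The 239 genes with an SD over 0.5 were 437 with no filter, which tests more genes. Number 3 lay above for 2649 genes with no filter and for 1921 to 2795 without 1 array, and below for 1610 to 3165 without 1 array (highest without adult-treated 4). By at least 1 on the log2 scale the counts were 38 and 86. Without 1 array the number 3 median ran from -0.56 to -0.38 for Treg identity, -0.87 to -0.64 for effector -0.66 to -0.37 for mitosis and -0.20 to -0.06 for DNA replication genes. Fewer arrays relax the range rule. No scaling moved the median of all genes by over 0.1, a bound wider than the median treatment difference itself. That was 0.058 as deposited and 0.077 with median centring. It was -0.0019 with quantile normalization and -0.0014 with the interquartile range as a covariate. The number of arrays limits the precision, and probe sets near the Y-linked range give lower bounds.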

Other observations

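Several genes outside the lists also set the arrays numbered 3 apart, given as values. Mid2, a microtubule-binding ubiquitin ligase, read 6.33, 8.55 and 8.63 after perinate and 6.44, 8.55 and 8.74 after adult treatment, against 5.63 to 6.71 on the tagged arrays. The cholesterol exporter gene Abca1, opposite in function to the synthesis genes, read 8.16, 9.60 and 9.80 against 7.79, 9.39 and 9.85. The G protein regulator Rgs2 stood at -1.49 and the palmitoyltransferase Zdhhc23 at -1.70 on the arrays numbered 3. Pstpip2 and the calcium channel gene Mcoln3 were 1.62 and 1.38 higher.

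Perinate-treated 3 stood alone for the metallothionein gene Mt2, at 6.67 against 8.62 to 9.55 on the other 5 arrays, and for the mitochondrial carrier gene Slc25a23, at 8.79 against 7.18 to 7.73. Adult-treated 3 was lowest for Trim12c, at 6.03 against 7.10 to 7.75. On adult-treated 5 the snoRNAs Snord57, Snord53, Snord33, Snord47 and Snord118 were each at least 1 below the other arrays.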
